A study of Mus musculus with 4 samples.

Results

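The genes described here are the nuclear genes for proteins of the mitochondrial ribosome, taken as the protein-coding genes whose symbol starts with Mrpl or Mrps followed by a digit. The table held 77 such genes of 16472 genes in all, 48 with a large subunit symbol (Mrpl) and 29 with a small subunit symbol (Mrps). RNA of wild-type mouse skeletal muscle was sequenced in 4 libraries to look for RNAs that accompany mitochondria. In 2 libraries the RNA came from mitochondria isolated by lysis and differential centrifugation (SM-mito), and in 2 it came from the fraction whose treatment label is tissue minus mitochondria and whose title is SM-total. The study's supplement speaks of a lysate of total muscle, which matches the titles and not the treatment label. The group is named remaining tissue after the treatment label, and the sources disagree on whether it is whole or depleted muscle. All libraries carry the genotype label WT and no other treatment; age, sex and whether the replicates came from separate animals are not given in the sources used here, so the spread between replicates may be technical.

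The mitochondrial ribosome translates the mRNAs encoded in mitochondrial DNA, all of which code for subunits of the oxidative phosphorylation complexes. Its rRNAs are made inside the organelle, while all of its proteins are encoded in the nucleus, translated by cytosolic ribosomes and imported. Muscle depends heavily on oxidative phosphorylation, and inherited defects of several of these proteins cause heart or muscle disease. The mRNAs described here are therefore transcripts of the nucleus and not of the organelle.

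The deposited values are gene counts divided by a size factor for each library, and are called normalized counts. In isolated mitochondria 1 read equalled 9.049 normalized counts in replicate 1 and 5.059 in replicate 2, so whole reads could be recovered, while 1 normalized count of remaining tissue stood for several reads. The libraries held 42749263 and 35306106 assigned reads of isolated mitochondria and an estimated 15704036 and 15301865 of remaining tissue, but 95.3% and 94.1% of the former were encoded in mitochondrial DNA, against 22.3% and 20.5% of the latter. Reads on nuclear genes other than copies of mitochondrial DNA therefore numbered 100924 and 181152 for isolated mitochondria, against about 11989623 and 11968682 for remaining tissue. All 8 myofibre markers (Acta1, Ckm, Myh4, Myh1, Ttn, Tnnt3, Mylpf and Atp2a1) were detected in remaining tissue, where they took 31.5% ± 0.718 of these nuclear reads (SD, n = 2), and 6.75% ± 0.63 in isolated mitochondria. In such bulk libraries, fewer cells of a type, less RNA per cell and loss of RNA in the isolation of mitochondria cannot be told apart.

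To show what the genes of the most abundant transcripts look like where transcription starts, promoter windows of RefSeq on GRCm38.p6 (300 bases around the annotated start) were searched for sequences bound by factors known for nuclear genes of mitochondrial proteins. These were the NRF-1 sequence (GCGC, any base, then TGCGC), the ETS family sequence CCGGAAGT and the YY1 sequence AAGATGGC, searched on both strands and not overlapping each other in the windows printed here. Of the 77 genes, 68 had 74 windows. The NRF-1 sequence was in 13 of these (17.6%, against 4.6% of all 32851 windows), the ETS sequence in 12 (16.2% against 3.89%) and the YY1 sequence in 12 (16.2% against 2.75%). At least 1 of them was in 34 windows (45.9% against 10.4%). Many members also start next to another gene. For 23 of them a protein-coding gene on the opposite strand starts within 1000 bases, such as Sars2, the mitochondrial seryl-tRNA synthetase, 172 bases from Mrps12. The matches are a description of the letters and not of bound sites.

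The windows of 4 of the 5 members with the highest level per kb of transcript in remaining tissue are shown, with the matched sequence in capitals and the gene's own strand read 5′ to 3′. They lie at chr3:95871465-95871764 (Mrps21, minus strand), chr11:120484387-120484686 (Mrpl12, plus strand), chr10:95501900-95502199 (Mrpl42, minus strand) and chr17:12916042-12916341 (Mrpl18, minus strand). The fifth member is Mrpl54.
Mrps21: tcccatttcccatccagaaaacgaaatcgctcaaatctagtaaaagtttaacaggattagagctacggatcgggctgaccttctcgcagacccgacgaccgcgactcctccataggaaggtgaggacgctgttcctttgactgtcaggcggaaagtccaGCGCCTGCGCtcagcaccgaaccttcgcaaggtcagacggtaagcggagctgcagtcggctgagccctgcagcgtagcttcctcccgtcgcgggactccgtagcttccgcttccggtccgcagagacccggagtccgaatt
Mrpl12: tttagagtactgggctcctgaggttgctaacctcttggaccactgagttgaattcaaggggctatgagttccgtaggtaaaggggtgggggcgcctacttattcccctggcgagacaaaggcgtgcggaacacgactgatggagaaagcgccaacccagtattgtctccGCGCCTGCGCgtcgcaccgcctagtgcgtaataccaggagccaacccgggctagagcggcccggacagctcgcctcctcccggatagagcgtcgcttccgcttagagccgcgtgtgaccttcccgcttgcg
Mrpl42: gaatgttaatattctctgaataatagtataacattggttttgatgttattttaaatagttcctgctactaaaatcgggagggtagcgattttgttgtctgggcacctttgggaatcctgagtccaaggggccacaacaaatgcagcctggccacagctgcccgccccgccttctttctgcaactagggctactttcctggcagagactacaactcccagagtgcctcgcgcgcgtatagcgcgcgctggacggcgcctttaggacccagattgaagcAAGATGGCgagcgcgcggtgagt
Mrpl18: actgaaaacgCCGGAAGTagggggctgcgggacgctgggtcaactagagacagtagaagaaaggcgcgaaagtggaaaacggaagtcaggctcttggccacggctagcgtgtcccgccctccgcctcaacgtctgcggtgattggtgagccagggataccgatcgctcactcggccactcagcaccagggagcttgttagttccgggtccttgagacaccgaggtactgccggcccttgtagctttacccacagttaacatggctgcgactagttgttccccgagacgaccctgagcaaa
The windows of Mrps21 and Mrpl12 hold the same NRF-1 letters, GCGCCTGCGC, while Mrpl42 holds the YY1 sequence close to its start and Mrpl18 the ETS sequence near the 5′ end of its window. By GENCODE M21 the gene Mrpl18 (chr17:12911349-12916345) starts before this window, so the match lies inside the gene in that annotation.

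All 77 members were detected in both libraries of remaining tissue, at means of 4.0 to 237.5 normalized counts with a median of 30, against a median of 12 over all genes of the table. The replicates of remaining tissue lay close to each other, with a Pearson correlation on the log2 scale of 0.976 across the 77 members. In isolated mitochondria the same correlation was 0.458, and between the group means it was 0.732 (across genes, which are not independent replicates). The median SD between replicates was 0.05 on the log2 scale in remaining tissue and 0.72 in isolated mitochondria.

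The number of reads behind these values was small. A median member had 2 reads in isolated mitochondria replicate 1 and 5 in replicate 2, and the highest had 19 (Mrpl12) and 37 (Mrpl42). In replicate 1, 12 members had no read, in replicate 2, 3 had none, and 26 members had at most 3 reads in both. A count of 0 allows up to 3 reads, which is 27.1 normalized counts in replicate 1 and 15.2 in replicate 2. The level in remaining tissue was below that floor for 35 members in replicate 1 and for 8 in replicate 2, so for these the absence of reads says little.

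**Figure D1:**
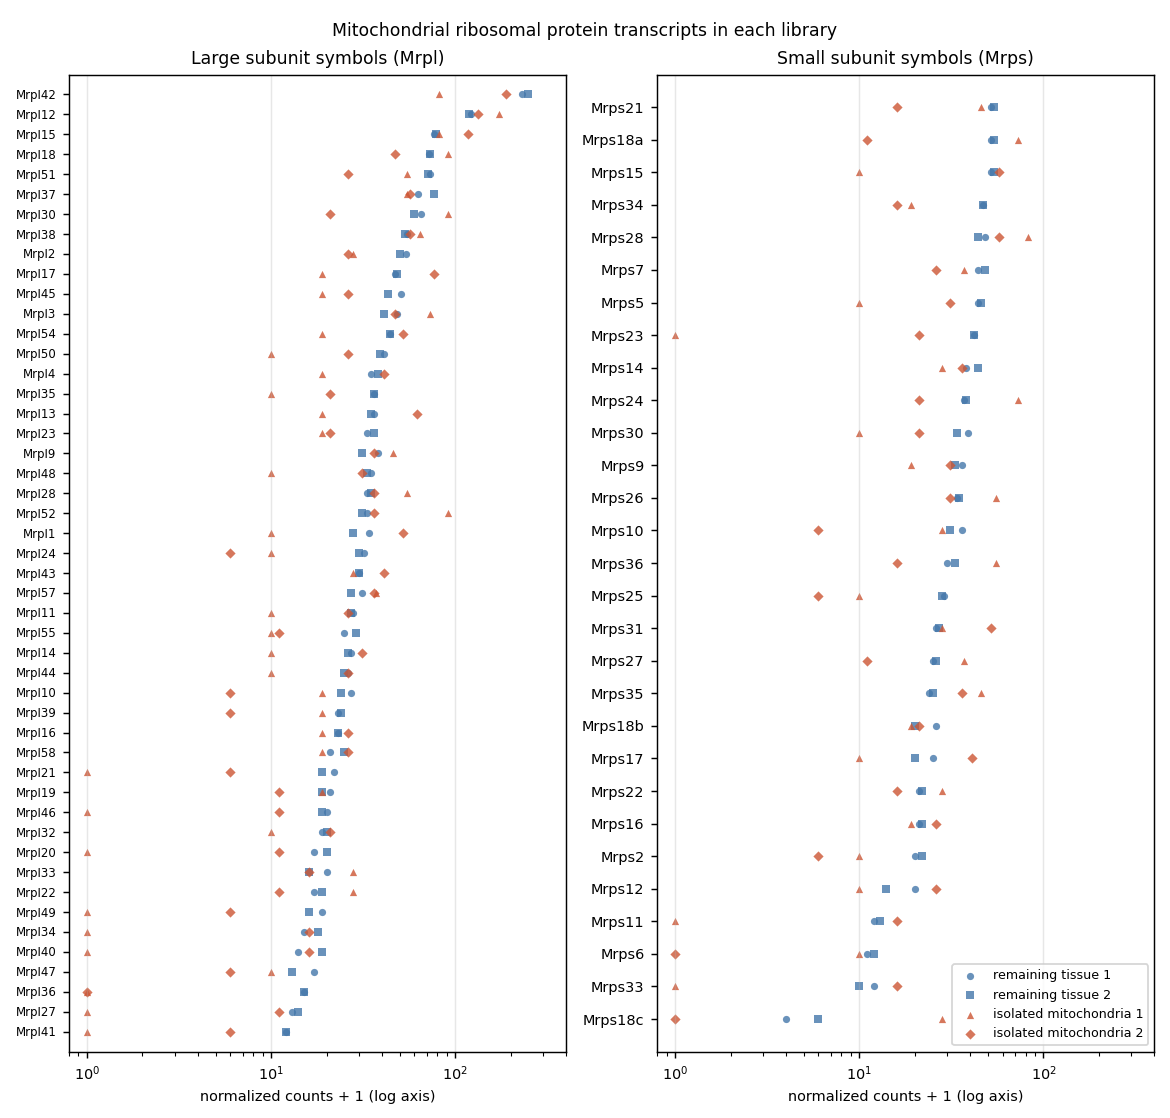
Normalized counts plus 1 (log axis) of the 77 members in each of the 4 libraries, in 2 panels for large and small subunit symbols, sorted by the level in remaining tissue. Points of remaining tissue (blue) nearly coincide, while the 2 libraries of isolated mitochondria (red) scatter on both sides of them and 12 members lie at 0 in replicate 1.

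To ask whether transcripts of the family were enriched or depleted in isolated mitochondria, every gene whose mean reached 20 normalized counts entered a common fit, which included 52 members, 30 of the large and 22 of the small subunit. No member passed an adjusted p of 0.05 in either direction (limma), where 16.6% of the 6916 genes tested did (7.32% higher and 9.3% lower). At an unadjusted p under 0.05 there were 3 members, Mrps34, Mrpl2 and Mrpl45, against 37% of all genes tested, and edgeR and DESeq2 on the recovered reads also called 0 members, with 2 and 6 at an unadjusted p under 0.05 (28.6% and 33% of all genes were called by these tools). The median log2 fold change of the members was -0.35, against -0.44 over all genes tested, with a range from -3.20 (Mrps23) to 0.84 (Mrpl52). The sign of this median followed the scaling, since it was 0.51 when libraries were scaled to their nuclear total and -6.7 when scaled to all genes, but under these scalings all genes had medians of 0.43 and -6.9. In the scaling to all genes all 52 were called lower, where 97.3% of all genes were called in either direction. The median standard error was 0.46 for the members and 0.44 over all genes tested, so a change of the size of the member median could not be detected for a single gene.

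The groups did not overlap for 28 of the 52 tested members (53.8%, against 69.1% of all genes tested), with 9 members higher and 19 lower in both libraries of isolated mitochondria. The corresponding shares over all genes were 25.5% and 43.7%. For a further 20 members, 1 library of isolated mitochondria lay above both libraries of remaining tissue and the other lay below both. Leaving out a library of isolated mitochondria changed the calls, since the remaining library then stood alone and was assumed to vary like the other group. Without replicate 1, 7 members were called higher and 18 lower (65.0% of all genes called), and without replicate 2, 13 were called higher and 23 lower (70%). Of the 19 members called in both of these fits, 10 had opposite directions.

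**Figure D2:**
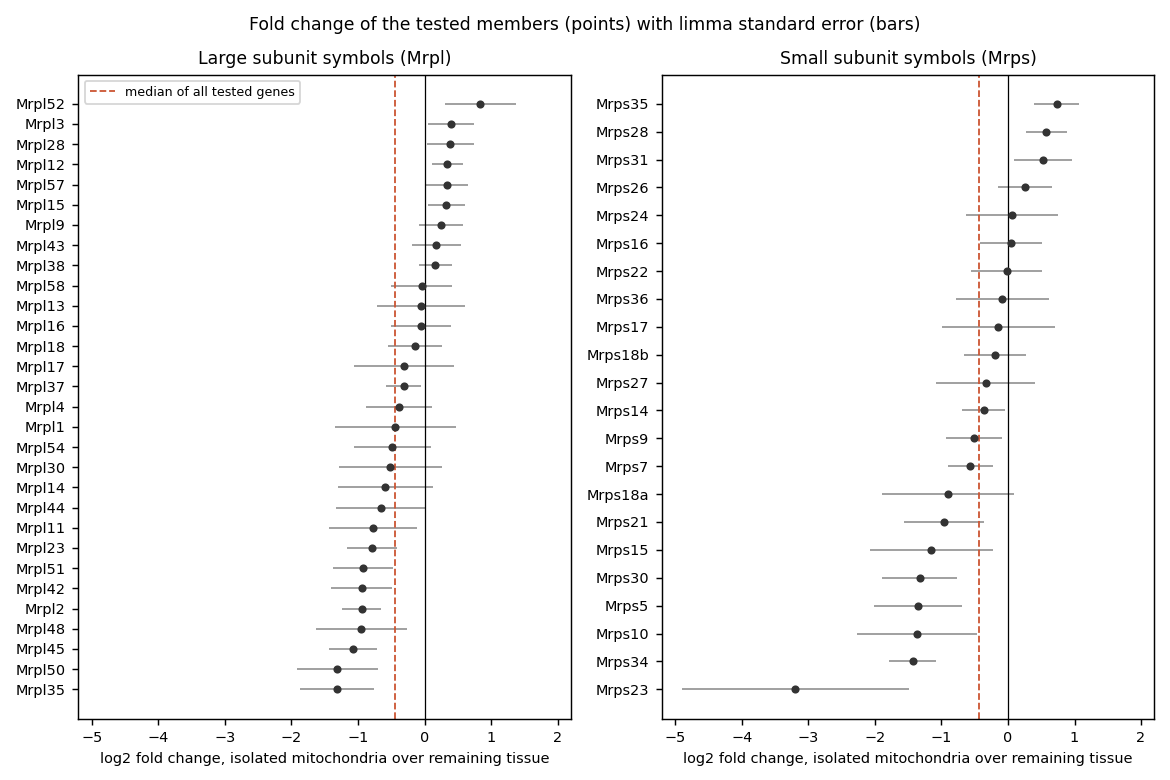
Log2 fold change of isolated mitochondria over remaining tissue for the 52 tested members (points) with limma standard errors (bars), in 2 panels for large and small subunit symbols. The dashed line is the median of all tested genes at -0.44, and most bars reach it or 0.

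The sum over the 77 members rests on more reads than any single gene. It was 2717 and 2703 normalized counts in replicates 1 and 2 of remaining tissue and 2161 and 2221 in isolated mitochondria. Both libraries of isolated mitochondria lay below both of remaining tissue, and the log2 ratio of the mean sums, isolated mitochondria over remaining tissue, was -0.31. In reads, isolated mitochondria had 240 and 441, where the level of remaining tissue would have given 299.5 and 535.7. The ratios were 0.801 (95% exact Poisson interval 0.703 to 0.909) and 0.823 (0.748 to 0.904), which cover counting error only and rest on the deposited scaling. Under the same scaling, the sum over all nuclear genes other than copies of mitochondrial DNA gave a log2 ratio of -0.9. The members therefore fell less than nuclear genes as a whole, whose sum includes the 8 myofibre markers with a log2 ratio of -3.12. No exact permutation test was run on the sums, because the smallest two-sided p that 2 libraries against 2 allow is 0.33.

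Large and small subunit genes had the same median and the same difference in their sums. The median log2 fold change was -0.35 for the 30 large and -0.35 for the 22 small subunit genes tested, and their summed levels both gave a log2 ratio of -0.31. Large subunit genes summed to 1839 and 1828 normalized counts in remaining tissue and 1387 and 1578 in isolated mitochondria. Small subunit genes summed to 878 and 875 in remaining tissue and 774 and 643 in isolated mitochondria. In single libraries the order of the subunits changed. The median log2 difference from remaining tissue was -0.62 for large and -0.23 for small subunit genes in replicate 1, and 0.08 and -0.48 in replicate 2. Small subunit transcripts took 32.3% and 32.4% of the member reads in remaining tissue. In isolated mitochondria they took 35.8% (95% Wilson interval 30 to 42.1) in replicate 1 and 29.0% (25 to 33.4) in replicate 2, that is above the remaining tissue in the first library and below it in the second. The group means were 32.3% ± 0.0444 and 32.4% ± 4.81 (SD, n = 2 each), so the difference was smaller than the spread between replicates.

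**Figure D3:**
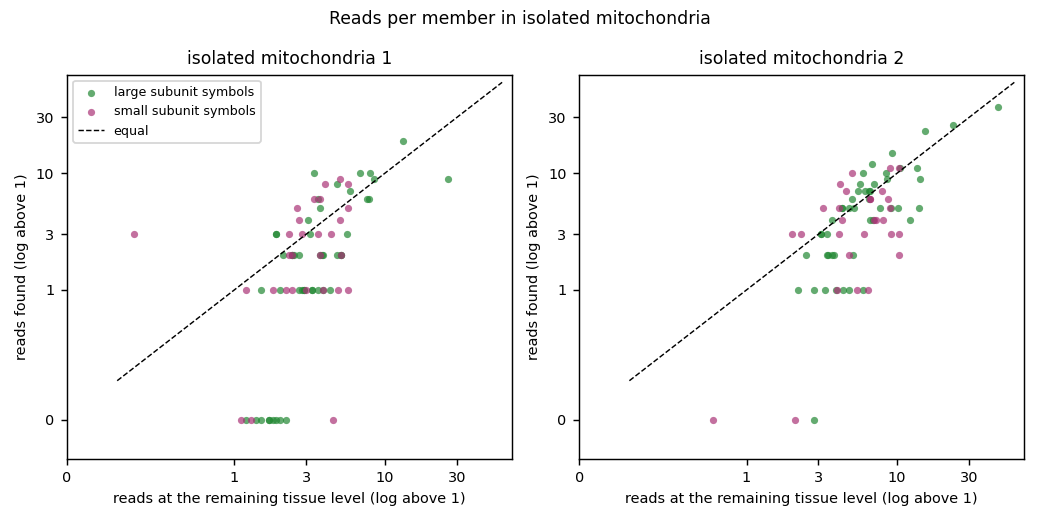
Reads found in each library of isolated mitochondria (vertical) against the reads expected at the level of remaining tissue (horizontal), 1 point per member, both axes linear up to 1 and logarithmic above. Points lie on both sides of the line of equality, and at 0 there are 12 members in replicate 1 and 3 in replicate 2.

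The 5 tested members furthest below remaining tissue all had small subunit symbols (gene coordinates are on GRCm38). Mrps23 (chr11:88204388-88211507, plus strand), a small subunit protein without a bacterial homologue, had 41 and 41 normalized counts in remaining tissue and 0 and 20 in isolated mitochondria (0 and 4 reads, where 4.5 and 8.1 were expected at the level of remaining tissue). Its log2 fold change of -3.20 had a standard error of 1.70 (limma adjusted p = 0.248), and the value depended on the library with no read and on the pseudocount. It was -1.0 without replicate 1 of isolated mitochondria, -5.39 without replicate 2, -1.56 with a pseudocount of 10, -1.43 with edgeR and -1.41 with DESeq2. Mrps34, a small subunit protein in which inherited defects cause Leigh syndrome, had 46 and 46 against 18 and 15. The latter were 2 and 3 reads, where 5.1 and 9.1 were expected at the level of remaining tissue. The groups lay apart, and its difference of -1.43 (SE 0.35) had the lowest p of the family (limma adjusted p = 0.0663). Its replicates lay close together, but on so few reads this closeness is no measure of precision. Exons of Mrps34 (chr17:24895116-24897502, plus strand) overlap those of its neighbours Nme3 and Mapk8ip3, and reads that fall on several genes were left out by the authors, so its level is uncertain.

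Mrps5 and Mrps10 are small subunit proteins kept from bacteria. Mrps5 had 43 and 45 normalized counts in remaining tissue and 9 and 30 in isolated mitochondria, and Mrps10 had 35 and 30 against 27 and 5. The groups lay apart for each gene, with log2 fold changes of -1.35 (SE 0.66) and -1.37 (SE 0.90). The lower library was replicate 1 for Mrps5 and replicate 2 for Mrps10. Without each library of isolated mitochondria in turn, Mrps5 ran from -2.17 to -0.54 and Mrps10 from -2.48 to -0.25. Mrps5 also shares 1019 nt at 98.43% identity with the gene Gm13328, and 221 other genes share a stretch of at least 75 nt at 95% identity with the Mrps10 transcript, so both levels are uncertain. Such a stretch was found in 27 members, among them Mrps21, Mrpl42, Mrps18b, Mrps18c and Mrps36, and 32 members had exons that overlap another gene. The 29 members with neither, of which 23 were tested, had a median of -0.39 and 0 calls by limma, with 2 at an unadjusted p under 0.05.

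At the other end stood Mrpl52 (chr14:54426909-54429756, plus strand), a protein of the central protuberance of the large subunit. It had 32 and 30 normalized counts in remaining tissue and 90 and 35 in isolated mitochondria, with a log2 fold change of 0.84 (SE 0.54, limma adjusted p = 0.318). Both libraries of isolated mitochondria were higher, the second by little, and the value was 0.17 without replicate 1 and 1.51 without replicate 2. Mrps35, without a bacterial homologue, had 23 and 24 against 45 and 35 (0.73, SE 0.34), and Mrps28 had 47 and 43 against 81 and 56 (0.57, SE 0.31). Neither overlapped between groups, and neither shared a stretch or an exon with another gene. Both passed an adjusted p of 0.05 when libraries were scaled to their nuclear total, as did Mrpl12, and no other member did. These are 3 of 52 members, where 18.7% of all genes were called under that scaling.

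Mrps31, of the small subunit, had 25 and 26 normalized counts in remaining tissue and 27 and 51 in isolated mitochondria (0.53, SE 0.44). Mrpl3, a core protein of the large subunit in which defects cause cardiomyopathy, had 47 and 40 against 72 and 46 (0.40, SE 0.34), and its groups overlapped. Scaling to all genes made the log2 fold change of each of these 5 members negative.

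Per kb of longest transcript, the levels in remaining tissue ran from 3.8 normalized counts per kb for Mrpl19 to 107 for Mrps21, a small subunit protein kept from bacteria. Mrpl12 followed with 90.0 per kb, Mrpl42 with 72.5, Mrpl54 with 71.2 and Mrpl18 with 58.7, all of the large subunit. Mrps21 had 51 and 53 normalized counts in remaining tissue and 45 and 15 in isolated mitochondria, lower in both libraries. Its log2 fold change was -0.97 (SE 0.60, limma adjusted p = 0.306), with -1.73 without replicate 1 of isolated mitochondria and -0.20 without replicate 2.

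Mrpl12 (chr11:120484613-120489065, plus strand) forms the flexible stalk that recruits translation factors, and it also binds the mitochondrial RNA polymerase. It had 120 and 117 normalized counts in remaining tissue and 172 and 132 in isolated mitochondria, where it gave 19 and 26 reads. Both libraries were higher, with a log2 fold change of 0.34 and the smallest standard error of the family, 0.24 (limma adjusted p = 0.348). Mrpl42 (chr10:95480805-95501940, minus strand), the member with the most normalized counts, had 228 and 247 in remaining tissue and 81 and 187 in isolated mitochondria. Both libraries were lower and differed from each other by more than the second differed from remaining tissue (-0.94, SE 0.46, limma adjusted p = 0.218), and the value was -0.34 without replicate 1 and -1.54 without replicate 2.

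Mrpl54, located near the stalk, had 43 and 43 normalized counts against 18 and 51, and Mrpl18, of the central protuberance, had 71 and 72 against 90 and 46. For both genes the libraries of isolated mitochondria lay on either side of remaining tissue. Their log2 fold changes of -0.49 (SE 0.58) and -0.15 (SE 0.40) turned positive when scaled to the nuclear total.

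Some members have names that do not give their place. Mrps18a, Mrps18b and Mrps18c are paralogs, of which Mrps18c alone was counted among the members with a bacterial homologue, and Mrps18a sits in the large subunit, as does Mrps30. Mrps18a had 51 and 53 normalized counts in remaining tissue and 72 and 10 in isolated mitochondria, and Mrps18b had 25 and 19 against 18 and 20. Both overlapped between groups, with log2 fold changes of -0.90 (SE 0.99) and -0.19 (SE 0.47). Mrps18c had the fewest normalized counts of all members in remaining tissue, at 3 and 5 against 27 and 0, that is 3 reads in replicate 1 and none in replicate 2, and was not tested. Mrps30 had 38 and 33 against 9 and 20, lower in both libraries (-1.33, SE 0.56, limma adjusted p = 0.171). Mrps36, now known as a part of the 2-oxoglutarate dehydrogenase complex and not of the ribosome, had 29 and 32 against 54 and 15 (-0.08, SE 0.70).

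Members with known roles in disease or in membrane contact gave no called difference either. Mrpl45, which lies at the polypeptide exit and helps to anchor the ribosome at the inner membrane, had 50 and 42 normalized counts in remaining tissue and 18 and 25 in isolated mitochondria. Its groups did not overlap (-1.08, SE 0.36, limma adjusted p = 0.117). Mrpl2, a core protein of the large subunit, had 53 and 49 against 27 and 25, also without overlap (-0.95, SE 0.29, limma adjusted p = 0.100). Mrpl44, whose defects cause infantile cardiomyopathy, had 25 and 24 against 9 and 25 (-0.66, SE 0.67), and Mrps22, with a like disease link, had 20 and 21 against 27 and 15 (-0.02, SE 0.53). Mrps12, at the decoding centre, had 19 and 13 against 9 and 25 and was not tested.

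Grouped by place in the ribosome, no part held a called member. Of the 7 genes around the polypeptide exit, 3 were tested, all with negative log2 fold changes and a median of -0.79. Their sum over the 7 genes was 192 and 183 normalized counts in remaining tissue and 108 and 95 in isolated mitochondria, on 12 and 19 reads. The stalk genes summed to 216 and 209 against 217 and 213 over 4 genes, of which Mrpl12 made up the larger part. The central protuberance (9 genes, 5 tested) had a median of -0.15, and the decoding centre and mRNA path (6 genes, 4 tested) -0.54. The 28 tested members with a bacterial homologue had a median of -0.38, and the 24 without -0.33. Across the 52 tested members, the log2 fold change had a Spearman correlation of -0.0505 with transcript length and -0.0185 with GC content, against -0.173 and 0.0522 across 6861 nuclear genes.

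The 25 members that were not tested had means of 6.75 to 19 normalized counts over the 4 libraries. Of these, 23 had a negative log2 difference and 6 had a mean of at least 20 in remaining tissue, so the filter on the overall mean left out lower members more often than higher ones. With all 77 members the median was -0.57, and a filter at a mean of 5 again called 0 of them, with 7 at an unadjusted p under 0.05 by limma (5.75% of all genes called) and 8 by edgeR (19.1%). A filter on remaining tissue alone, which 58 members passed, also called 0 by limma, with 6 at an unadjusted p under 0.05 (11.2% of all genes called). Mrpl36, a core protein of the large subunit with 14 and 14 normalized counts in remaining tissue, was the only member with no read in either library of isolated mitochondria. Its level in remaining tissue was below the floor, so no fold is given.

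As a share of nuclear reads the family was higher in isolated mitochondria. It took 0.160% and 0.159% in remaining tissue, and 0.238% (95% Wilson interval 0.210 to 0.270) and 0.243% (0.222 to 0.267) in isolated mitochondria. The means of 0.160% ± 0.000405 and 0.241% ± 0.00399 (SD, n = 2 each) differed by a factor of 1.51, more than the spread between replicates. For the lists described below, this factor was 1.38 for nuclear complex I genes and 1.78 for assembly factors. It was 1.3 for subunits without an Mrp symbol, 3.43 for cytosolic ribosomal proteins and 0.73 for genes of mitochondrial translation. Scaled to the nuclear total, the median log2 fold change was 0.51 for the members and 0.43 over all genes tested. A higher share was therefore not particular to the family. The 8 myofibre markers, whose reads are part of the denominator, were each called lower in isolated mitochondria. With their reads taken out of the denominator, the members took 0.235% and 0.231% in remaining tissue and 0.256% and 0.260% in isolated mitochondria, a factor of 1.11. As a share of all reads the family fell far below remaining tissue, with 0.000561% and 0.00125% against 0.122% and 0.125%.

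Markers of other cells differed in direction, and the sums of adipocyte markers overlapped between the groups. Over all genes tested, limma called 7.32% higher and 9.3% lower. The 3 fibroblast markers Col1a1, Pdgfra and Dcn were all called higher and summed to 761 and 799 normalized counts in remaining tissue and 4307 and 7219 in isolated mitochondria. Both tested macrophage markers of 3 were called higher, from sums of 33 and 40 to 289 and 278. Hepatocyte markers (Alb, Apoa1, Ttr) summed to 217 and 37 in remaining tissue and 9158 and 1922 in isolated mitochondria, with 0 of 3 called by limma and 3 at an unadjusted p under 0.05. The 3 endothelial markers summed to 372 and 364 against 54 and 80, with 1 called lower. The neuron marker Rbfox3 had 0 and 0 normalized counts in remaining tissue against 471 and 648 in isolated mitochondria. Erythroid markers summed to 87 and 91 against 36 and 25, and adipocyte markers to 26 and 110 against 45 and 85. The part of other cells in the levels of the ribosomal protein transcripts was not tested.

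The mitochondrial ribosome also holds proteins without an Mrp symbol. The 5 genes Dap3 (a GTP-binding protein), Ptcd3 (an RNA-binding protein), Aurkaip1 and Chchd1 of the small subunit and Gadd45gip1 of the large subunit were all tested and 0 were called (limma, 1 at an unadjusted p under 0.05). All 5 log2 fold changes were negative, with a median of -0.95. Aurkaip1 had 72 and 69 normalized counts in remaining tissue and 81 and 51 in isolated mitochondria, and Chchd1 had 55 and 50 against 27 and 66, so both overlapped. Ptcd3 had 48 and 53 against 27 and 15, Dap3 had 39 and 37 against 36 and 10, and Gadd45gip1 had 34 and 31 against 27 and 0. When members were counted by protein, with these 5 added, Mrps36 left out and Mrps18a and Mrps30 moved to the large subunit, 56 genes were tested, 0 were called and the median was -0.38.

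Around the ribosome, 23 assembly factors had mostly low levels, and the 6 tested ones had a median of 0.07 with 0 called. A list of 12 genes for mitochondrial translation in a broad sense held initiation, elongation, release and recycling factors (Mtif2, Mtif3, Tufm, Tsfm, Gfm1, Gfm2, Mtrf1, Mtrf1l and Mrrf), the translational activator Taco1, the membrane insertase Oxa1l and the mRNA stability factor Lrpprc. Of these, 8 were tested and all had negative log2 fold changes, with a median of -1.67. None passed the adjusted threshold in limma, although 5 had an unadjusted p under 0.05 (37% of all genes tested did). The list summed to 767 and 742 normalized counts in remaining tissue and 334 and 257 in isolated mitochondria. The elongation factor Tufm had 104 and 92 against 9 and 30, and Gfm2, which acts in ribosome recycling, had 105 and 100 against 27 and 10 (limma adjusted p = 0.0711 and 0.0502).

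For scale, nuclear-encoded subunits of complex I, which are also translated in the cytosol and imported, had 2 of 37 tested genes called lower and 0 higher, with a median of -0.45. Proteins of the cytosolic ribosome had 13 of 73 tested genes called higher and 0 lower, and 66 of the 73 log2 fold changes were positive with a median of 0.76. Their sum was 8583 and 8585 normalized counts in remaining tissue and 13002 and 18733 in isolated mitochondria, on 1437 and 3703 reads. Over all genes tested, 7.32% were called higher and 9.3% lower, with a median of -0.44. The difference between the lists was not tested.

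**Figure D4:**
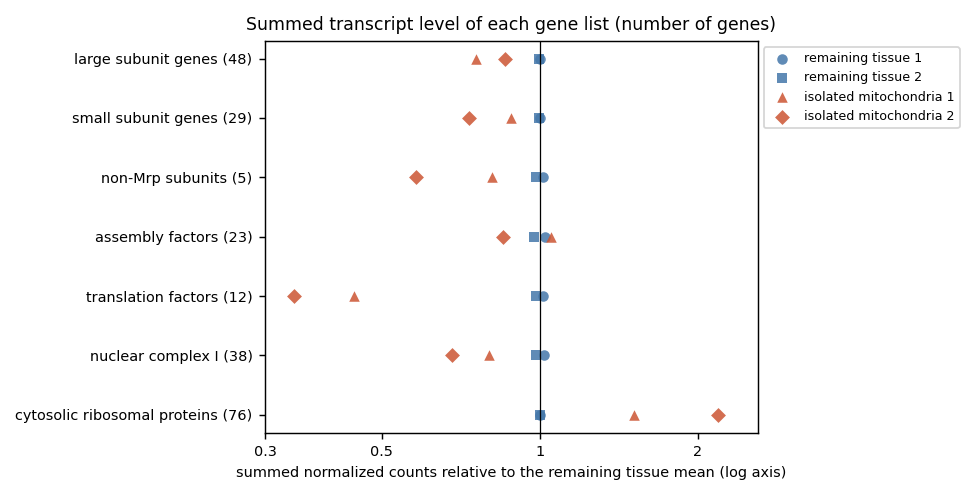
Summed normalized counts of each gene list in the 4 libraries, divided by the mean of remaining tissue (log axis), with the number of genes in parentheses. Large and small subunit genes of the mitochondrial ribosome lie below 1 in both libraries of isolated mitochondria, the list of 12 translation genes (labelled translation factors, with Oxa1l, Taco1 and Lrpprc) lies further below, and cytosolic ribosomal proteins lie above 1.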

How the data were processed

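RNA was isolated from both fractions, and 10 ng per library entered a stranded kit for small inputs. Fragmentation was shortened for mitochondrial samples, so any effect of it coincides with the groups. The study's methods, written for heart, also treat isolated mitochondria with digitonin and RNase A before RNA isolation. They do not say whether this was done for muscle. Any effect of such a step would likewise coincide with the groups and was not tested. The submitters' processing notes name Trimmomatic 0.39, STAR 2.7.10a, featureCounts 2.0.2, DESeq2 1.30.1 and mm10 (GRCm38); the study's methods name the same tools, with other versions of the last 3. The unit of the deposited table is a signal, namely gene counts that the authors divided by size factors and rounded; 99.95% and 99.97% of low values in isolated mitochondria were whole multiples of 1 read within the rounding. Estimated reads of remaining tissue rest on a median-of-ratios value.

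Genes with a mean of at least 20 were fitted with limma 3.58.1 (trend, two-sided) in R 4.3.3 on log2(value + 1). Benjamini-Hochberg adjustment ran over all genes tested, with a threshold of 0.05. The added 1 makes changes of low genes smaller, but a library with no read can make them large. Mrps23 was -3.20 by limma, -1.43 with edgeR and -1.41 with DESeq2, and Gadd45gip1 was -2.66, -1.49 and -1.13. Alternatives used edgeR 4.0.16 and DESeq2 1.42.0 on recovered reads, other filters, pseudocounts of 0.5 and 10, other scalings, a replicate block and each library left out. The limma and edgeR steps were run on simulated data. The known changes in it were larger than the member median, so it says nothing about changes of that size. Annotation was GENCODE M21; shared stretches were found with BLAST 2.17.0. Strand use in counting is not given in the sources used here.

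Named genes were the 5 highest and 5 lowest tested members, the 5 highest per kb, Mrps18a, Mrps18b, Mrps18c, Mrps30, Mrps36, Mrpl12, Mrpl44, Mrpl45, Mrps12, Mrps22 and the 5 subunits without an Mrp symbol; Mrpl2, Mrpl36, Mrpl19, Tufm and Gfm2 were added after their values were seen. The members and lists were chosen with earlier results of these data known.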

Additional observations from a re-analysis of the deposited data

How the results depend on the processing

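Beside the counts of 0 members called, scaling to the nuclear total gave 3 members higher (18.7% of all genes called), no filter gave 3 lower (Mrpl2, Mrpl36 and Mrps34; 22.4% of all genes called), and scaling to all genes gave 52 lower. Leaving out each library gave 0 to 13 higher and 0 to 23 lower, with calls only without a library of isolated mitochondria. The other alternatives called 0.

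The median log2 fold change of the members was -0.57 with a mean of at least 5 and with no filter. It was -6.7 scaled to all genes, 0.51 scaled to the nuclear total, -0.08 scaled to the upper quartile, 0.06 with edgeR, 0.11 with DESeq2 and -0.40 to -0.13 with each library left out. Large subunit genes had -6.7 and 0.52 under the first 2 of these scalings and -0.62 to 0.08 with libraries left out. Small subunit genes had -6.71, 0.51 and -0.08 under the 3 scalings, -0.08 with edgeR, 0 with DESeq2 and -0.48 to -0.23 with libraries left out. The member median lay 0.08 to 0.21 above that of all genes under the 3 scalings, and 0.16 below it with a mean of at least 5 (0.23 below with edgeR at that filter). It lay 0.11 above that of all genes with no filter. With the filter on remaining tissue alone it lay 0.29 above, so the sign depended on which genes were let in. The cause was not tested.

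The share of reads was 0.123% in remaining tissue and 0.000905% in isolated mitochondria over all genes, and 0.157% and 0.0166% over genes not encoded in mitochondrial DNA. It was 0.172% and 0.255% with members by protein. Without myofibre markers, an alternative chosen after seeing the data, as were edgeR at a mean of at least 5 and members without shared stretches or overlapping exons, it was 0.233% and 0.258%.

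Of 442 values of the named genes under alternatives, 347 kept direction and side of the threshold, 53 passed it and 42 changed sign. Some of those that passed came from scaling to all genes, where 97.3% of all genes were called. A larger part came from fits with a single library of isolated mitochondria, and the rest from 4 genes. These were Mrps34 with no filter and Mrps35, Mrps28 and Mrpl12 scaled to the nuclear total. Scaled to all genes, the log2 fold change was -5.79 for Mrpl52, -5.79 for Mrps35, -6.10 for Mrps28, -5.93 for Mrps31, -6.24 for Mrpl3 and -6.45 for Mrpl12. Scaled to the nuclear total, it was 0.38 for Mrpl54, 0.73 for Mrpl18, 0.66 for Mrps18b, 0.78 for Mrps36, 0.19 for Mrpl44, 0.83 for Mrps22, 0.75 for Aurkaip1 and 0.57 for Chchd1. Scaled to the upper quartile, it was 0.12 for Mrpl18, 0.07 for Mrps18b, 0.18 for Mrps36, 0.24 for Mrps22 and 0.14 for Aurkaip1. With edgeR and DESeq2 it was 0.08 and 0.11 for Mrpl54, 0.04 and 0.12 for Mrpl18, 0.06 and 0.10 for Mrps18b, 0.19 and 0.35 for Mrps36, 0.17 and 0.22 for Mrps22, 0.06 and 0.11 for Aurkaip1, and 0.21 and 0.23 for Chchd1. With each library left out it ran from -1.21 to 0.24 for Mrpl54, -0.63 to 0.33 for Mrpl18, -2.27 to 0.46 for Mrps18a, -0.98 to 0.81 for Mrps36, -1.35 to 0.03 for Mrpl44, -0.43 to 0.38 for Mrps22, -0.46 to 0.20 for Aurkaip1 and -0.93 to 0.33 for Chchd1.

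With a replicate block 0 members were called and the median was -0.35. Same-numbered libraries correlated by 0.141 in their deviations over 6862 genes, with 2 pairs and no label that ties a number to a shared source, so whether the numbers pair the libraries is not settled; the block raised the calls over all genes from 1149 to 1774.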
